A study of Sus scrofa with 6 samples.

Results

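Transcription factor families that control the differentiation of epithelial cells were compared between air-liquid interface (ALI) and submerged (SMC) cultures of IPEC-1. Members were taken by symbol from the platform annotation, namely the KLF, SOX, GATA, CDX, ELF, ID, EGR, FOX, HNF, HOX, JUN, FOS, CEBP, NR, PPAR, RXR, TP63, MYC and GRHL groups. Of the 6765 genes with 1 symbol on the array, 70 matched, and 28 of them had more than 1 probe set. No probe set carried a single symbol of the CDX, TP63 or GRHL group, so these 3 of 19 groups were not analysed here. The symbols also caught 5 genes that match the start of a symbol but do not belong to these factor families. These are the oxidoreductase FOXRED1, the MYC-binding proteins MYCBP and MYCBP2, CEBPZOS, and the coactivator PPARGC1A.

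IPEC-1 is an epithelial cell line from the small intestine of the pig, and the labels give the jejunum as its source, although a free-text field of the same labels speaks of liver. All cultures were grown on porous membranes and kept at the end in medium without serum but with epidermal growth factor, insulin, transferrin and selenium, with a thin apical film of liquid for ALI and a column of medium above the cells for SMC. The data were 6 GeneChip Porcine Genome Arrays, 3 of ALI and 3 of SMC cells, with 1 ALI and 1 SMC array from each of passages P109, P111 and P113. The arrays of a group were thus passages of 1 cell line, and p-values measure the spread between them. Values are log2 signals of the probe set with the highest mean of a gene, and fold changes are ALI over SMC.

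The epithelial label was checked against marker genes. EPCAM and the E-cadherin gene CDH1 had log2 signals of 13.3 to 13.4 and 12.7 to 13.0 over all arrays, and the mean signal of 14 epithelial markers was 10.34 to 10.44 in ALI and 10.35 to 10.56 in SMC cells. The 8 measured enterocyte markers averaged 5.05 to 5.09 in ALI and 5.06 to 5.20 in SMC cells, and 3 of them were in both groups among the dimmest 25% of an array. Of 5 measured immune markers, 3 lay there as well, among them the leukocyte gene PTPRC. So did 3 of 6 endothelial, 2 of 9 fibroblast and smooth muscle, 2 of 5 secretory and 1 of 14 epithelial markers. The fibroblast and smooth muscle markers averaged 5.999 to 6.18 in ALI and 6.08 to 6.16 in SMC cells, above the enterocyte markers. The secretory list had 1 gene higher (GCG, glucagon) and 1 lower (TFF3, a goblet cell peptide), the endothelial list had 1 lower (PECAM1), and the other marker lists had none. Their part in the members' values was not tested, and in bulk RNA fewer cells of a type and less RNA per cell cannot be told apart. No detection calls were used, so a signal in the lowest 25% (below 4.52 to 4.61 on single arrays) is not shown to be above background. This held in both groups for 7 members (EGR4, HOXA9, HOXB7, HOXD12, ID2, NR4A3 and PPARGC1A).

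As background, intestinal epithelium is specified by endodermal factors of the FOXA, GATA and HNF groups, and regional identity is set by HOX and CDX genes. In the crypt, SOX9 and MYC mark dividing progenitors and ID proteins hold back helix-loop-helix factors, while KLF4, ELF3 and CEBP factors belong to cells that leave the cycle. JUN, FOS and EGR genes are immediate early genes, transcribed within minutes of a growth factor or stress signal and quickly shut off. Nuclear receptors such as PPAR and RXR bind lipids, bile acids or steroids and switch metabolic genes.

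No member passed the test between ALI and SMC cells in the main fit, which had culture type as its only factor. With the passage as a block FOXA2, CEBPG and SOX9 passed, as given below. In limma, 0 of 70 members were higher and 0 were lower when p was adjusted over all 23999 probe sets by Benjamini-Hochberg and the threshold set at 0.05, while 1.02% of all 6765 genes were called higher and 1.51% lower. At an unadjusted p under 0.05, limma gave 8 members higher (11.4%) and 1 lower (1.43%), against 7.1% and 8.91% of all genes. In both directions together these were 9 of 70 members and 1083 of 6765 genes. The methods' t-test gave 7 higher and 0 lower at an unadjusted p, against 7.1% and 7.07% of all genes, and 0 members after adjustment. The members' median log2 fold change was 0.04, against 0.01 over all genes, and single members ranged from -0.77 for EGR1 to 0.70 for FOXA2. Past 1.5-fold in either direction were 5 members (7.14%), 1 up and 4 down, against 5.04% of all genes. For 48 members (68.6%) the 95% interval of the fold change lay wholly within 1.5-fold either way, against 76.1% of all genes. A count of 0 among 70 genes lies near the small shares called over all genes.

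All ALI arrays lay above all SMC arrays for 9 members, or 12.9%, against 11% of all genes. These were FOXA2, FOXP3, GATA2, GATA3, KLF1, KLF13, CEBPA, ID2 and RXRB. For GATA3 the groups overlapped in its other probe sets, which had log2 fold changes of -0.08, 0.10 and -0.01. The opposite order was seen for 1 member, CEBPG, or 1.43%, against 10.9% of all genes. With the passage as a block in the fit, 1 member was higher (FOXA2, 1.43%) and 2 were lower (CEBPG and SOX9, 2.86%), where 2.25% of all genes were higher and 3.75% were lower.

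**Figure D1:**
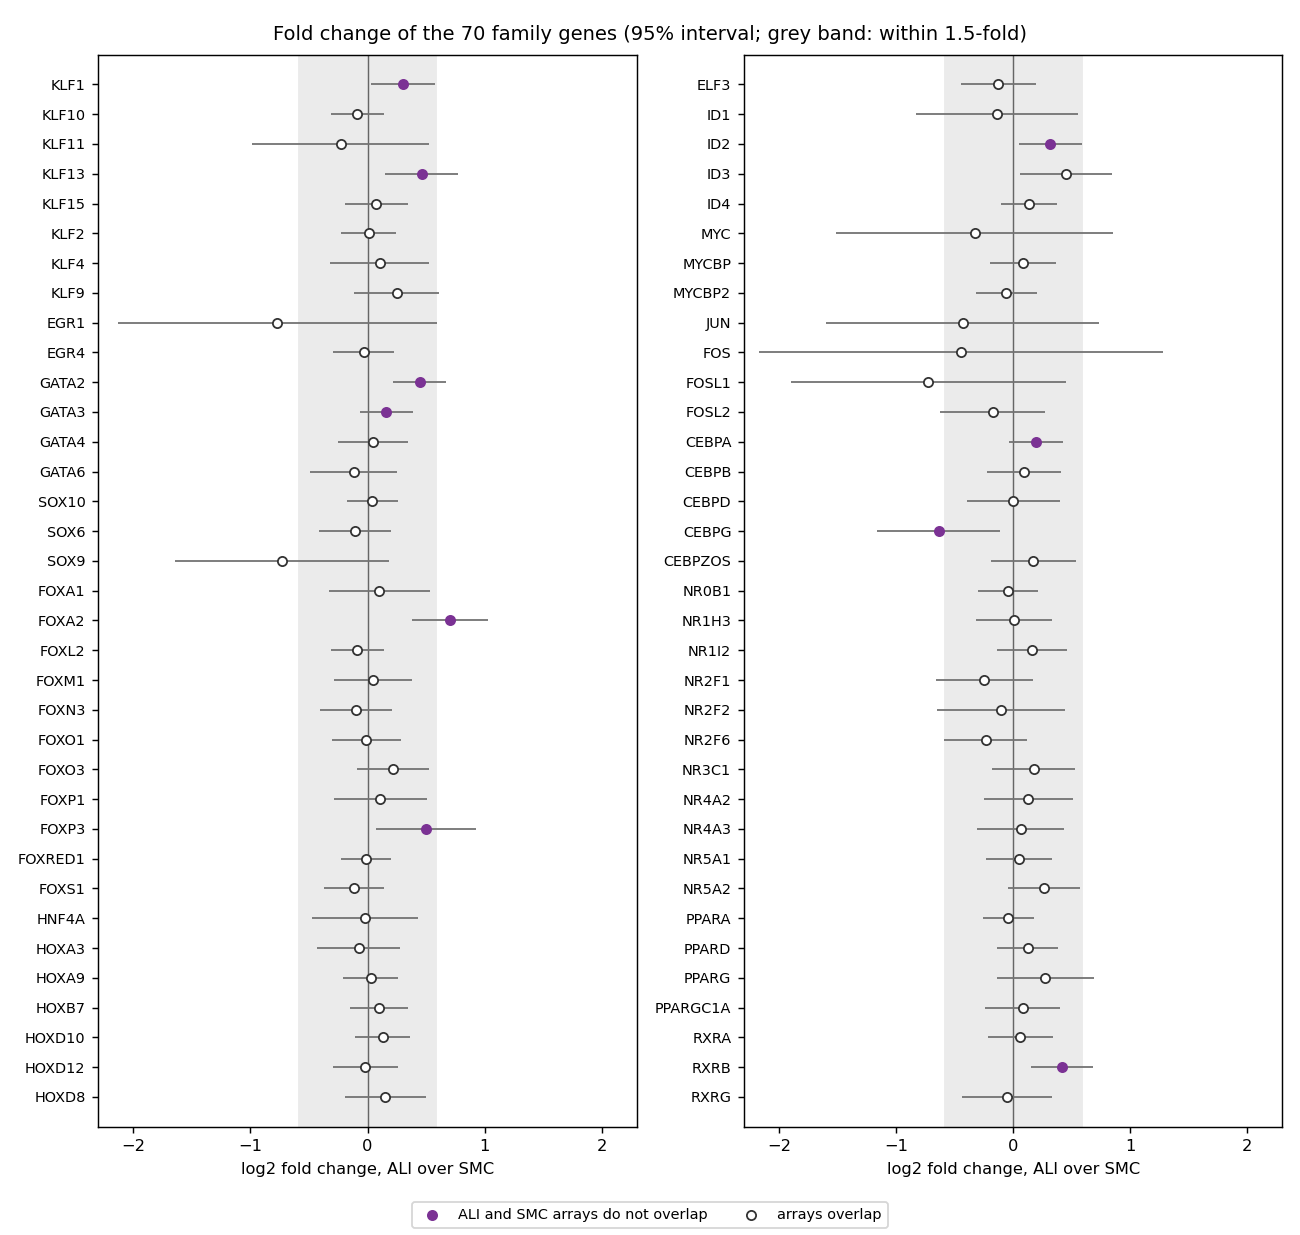
Log2 fold change, ALI over SMC, of the 70 family genes with its 95% interval from limma, with filled points for genes whose ALI and SMC arrays do not overlap and a grey band for changes within 1.5-fold. Most intervals lie inside the band, and the widest belong to FOS, EGR1, MYC, JUN and FOSL1, all of which include 0.

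FOXA2, a pioneer factor of endoderm that opens chromatin in gut and liver, came closest to a call. Its log2 signal was 9.93, 9.95 and 10.10 in ALI cells of passages P109, P111 and P113, against 9.003, 9.46 and 9.41 in SMC cells. The lowest ALI array was above the highest SMC array, and the ALI array was the higher one in each passage, by 0.93, 0.48 and 0.70. The log2 fold change was 0.70 (standard error 0.14, 1.63-fold), with an adjusted p of 0.0514 in limma and of 0.0146 with the passage as a block. It was also under 0.05 with an intensity trend, after quantile normalization and among probe sets with a mean above 6 (0.0493, 0.0313 and 0.048), and between 0.0776 and 0.149 when 1 array was left out. The second FOXA2 probe set, with lower signals (mean 5.33), gave -0.19 (adjusted p = 0.625), and the mean of both probe sets gave 0.25 (adjusted p = 0.38). FOXA1, its paralog with the same binding motif, had log2 signals of 10.79, 10.71 and 11.42 in ALI and 10.78, 10.82 and 11.01 in SMC cells. Its groups overlapped, with a log2 fold change of 0.10 and a 95% interval of -0.33 to 0.53.

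The other forkhead genes ranged from -0.12 for FOXS1 to 0.50 for FOXP3. FOXP3, the factor of regulatory T cells, had log2 signals of 5.67, 5.89 and 5.97 in ALI and 5.61, 4.92 and 5.51 in SMC cells (adjusted p = 0.269), and its second probe set gave 0.05. FOXO1 and FOXO3, which act downstream of insulin signaling, had log2 fold changes of -0.01 and 0.22, and their second probe sets gave -0.04 and -0.08. FOXM1, a driver of mitotic genes, had one of 0.05 (adjusted p = 0.925). Its signal was 7.04, 6.79 and 6.62 in ALI and 6.97, 6.75 and 6.59 in SMC cells, so that arrays of the same passage were closer to each other than arrays of the same culture type.

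GATA2, best known from blood precursors, had the narrowest groups among the members with separate arrays. Its log2 signal was 6.72, 6.62 and 6.57 in ALI cells, against 6.16, 6.22 and 6.20 in SMC cells. The ALI array was higher in each passage, by 0.56, 0.40 and 0.37, and the log2 fold change was 0.44 (standard error 0.10). The adjusted p was 0.0679 in limma and 0.0514 with the passage as a block, and the second probe set gave 0.15. GATA4 and GATA6, the GATA factors of gut endoderm, stayed near 0. GATA4 had log2 signals of 5.80, 6.16 and 5.96 in ALI and 5.92, 6.07 and 5.78 in SMC cells, and GATA6 had 9.62, 9.39 and 9.62 in ALI and 9.54, 9.44 and 10.01 in SMC cells. The 95% intervals of their log2 fold changes were -0.25 to 0.35 for GATA4 and -0.49 to 0.26 for GATA6, so a change of 1.5-fold lay outside both.

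HNF4A, a nuclear receptor that maintains the enterocyte program, was at 7.23, 7.35 and 6.80 in ALI and at 7.28, 7.39 and 6.78 in SMC cells. Within a passage the culture types differed by -0.05, -0.04 and 0.02 log2 units, while the arrays of passage P113 were the lowest in both groups. The log2 fold change was -0.02 (95% interval -0.47 to 0.43, adjusted p = 0.978). Of 20 other measured genes that HNF and CDX factors activate in enterocytes, 0 were higher and 0 lower, with a median of -0.01, and 8 of the 20 lay in the lowest 25% in both groups. All 6 HOX genes had 95% intervals within 1.5-fold, with log2 fold changes from -0.07 for HOXA3 to 0.15 for HOXD8, and 3 of them were among the dim members. HOXD10, the HOX gene with the highest signal, was at 6.55, 6.45 and 6.35 in ALI and at 6.37, 6.31 and 6.27 in SMC cells (log2 fold change 0.13, adjusted p = 0.622).

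Among Krueppel-like factors, zinc finger proteins that bind GC-rich promoters, 6 of 8 had a positive and 2 a negative log2 fold change, between -0.23 for KLF11 and 0.46 for KLF13. KLF13 was at 8.84, 8.69 and 8.82 in ALI cells, against 8.49, 8.05 and 8.43 in SMC cells. The groups did not overlap, and the adjusted p was 0.158, or 0.0535 with the passage as a block. KLF4, which promotes goblet cell differentiation and cell cycle exit, was at 8.36, 8.12 and 8.68 in ALI and at 8.38, 7.97 and 8.50 in SMC cells. Its log2 fold change was 0.10, with a 95% interval of -0.32 to 0.53 (adjusted p = 0.849). KLF10, a gene induced by TGF-beta, was at 12.01, 11.89 and 11.86 in ALI and at 11.95, 11.99 and 12.08 in SMC cells (log2 fold change -0.09, 95% interval -0.32 to 0.14). ELF3, an epithelium-specific ETS factor of enterocyte maturation, had 10.87, 10.62 and 10.43 in ALI and 10.85, 10.61 and 10.83 in SMC cells. The 2 values were nearly equal in passages P109 and P111, and the log2 fold change was -0.13 (adjusted p = 0.737). The second ELF3 probe set, with lower signals (mean 7.33), gave -0.23 (adjusted p = 0.483 from limma). Its ALI arrays all lay below its SMC arrays, with the highest ALI array at 7.34 and the lowest SMC array at 7.36.

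SOX9, the HMG box factor of crypt progenitors, was lower in ALI cells in each passage. Its log2 signal was 6.73, 5.83 and 6.03 in ALI cells, against 7.89, 6.57 and 6.33 in SMC cells, and the differences within passages P109, P111 and P113 were -1.16, -0.74 and -0.30. The groups overlapped because the ALI array of passage P109 was above the SMC arrays of passages P111 and P113. The log2 fold change was -0.73 (standard error 0.40) with an adjusted p of 0.452 in limma, and of 0.0389 with the passage as a block. Without SMC replicate 1, the array with the highest SOX9 signal, it was -0.25 (adjusted p = 0.749). SOX6 and SOX10 had log2 fold changes of -0.11 and 0.04.

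CEBPG, a leucine zipper partner of other CEBP factors and of ATF4, was the only member with all ALI arrays below all SMC arrays. Its log2 signal was 7.20, 6.71 and 7.03 in ALI cells and 8.13, 7.46 and 7.26 in SMC cells, and the gap between the groups was narrow. ALI cells were lower in each passage, by a difference of -0.92, -0.75 and -0.23. The log2 fold change was -0.63 (standard error 0.23), with an adjusted p of 0.253 in limma and of 0.0461 with the passage as a block, and of 0.16 to 0.458 when 1 array was left out. Without SMC replicate 1 the log2 fold change was -0.38, less than 1.5-fold. CEBPB, an inflammatory and metabolic regulator, differed by only 0.08, 0.09 and 0.10 within the passages, with log2 signals of 12.15, 12.22 and 12.50 in ALI and 12.07, 12.13 and 12.40 in SMC cells. CEBPA and CEBPD, factors of differentiating and stressed cells, had log2 fold changes of 0.19 (95% interval -0.04 to 0.43) and 0.00 (-0.40 to 0.40). The other probe sets of CEBPD, with means of 9.51 and 5.68, gave -0.24 and -0.14.

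**Figure D2:**
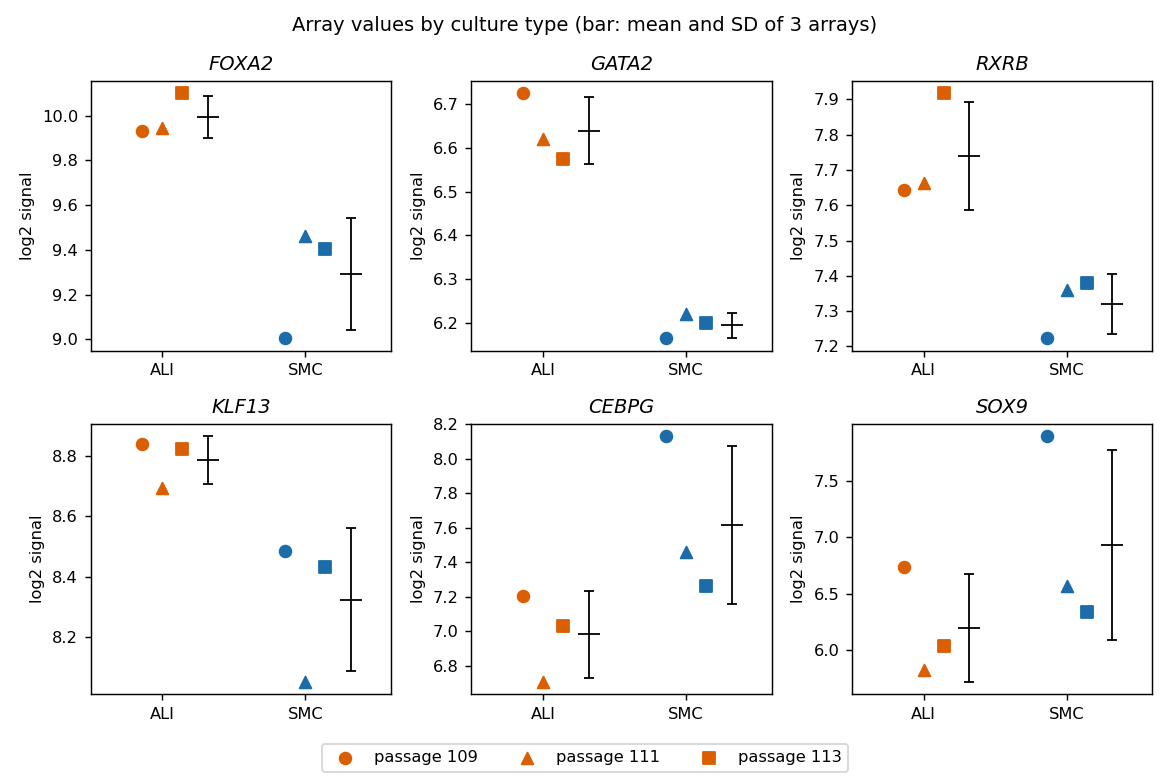
Log2 signal of FOXA2, GATA2, RXRB, KLF13, CEBPG and SOX9 on each array, ALI left of SMC, with the symbol giving the passage and the bar the mean and SD of 3 arrays. FOXA2, GATA2, RXRB and KLF13 have all ALI arrays on top, CEBPG has them all below, and SOX9 overlaps with its highest value in SMC cells of passage P109.

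None of the NR, PPAR and RXR genes passed the test, with or without the block. RXRB, a retinoid X receptor that pairs with PPAR, LXR and other receptors, was at 7.64, 7.66 and 7.92 in ALI cells, against 7.22, 7.36 and 7.38 in SMC cells. The groups did not overlap, and the log2 fold change was 0.42 (standard error 0.12, adjusted p = 0.134, and 0.0657 with the passage as a block). RXRA and RXRG had log2 fold changes of 0.06 and -0.05. PPARG, a lipid sensor of adipocytes and colonocytes, was at 9.62, 9.24 and 9.42 in ALI and 9.01, 8.91 and 9.54 in SMC cells (log2 fold change 0.27, adjusted p = 0.551). The highest SMC array exceeded 2 of the ALI arrays. PPARA, which drives fatty acid oxidation, had log2 signals of 4.62 to 4.67 in ALI and 4.62 to 4.72 in SMC cells, just above the lowest 25%.

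All 11 genes with NR symbols had log2 fold changes between -0.25 for NR2F1 and 0.26 for NR5A2. NR2F2 (COUP-TFII), a regulator of mesenchymal and gut development, was at 9.47, 9.63 and 10.05 in ALI and 9.29, 10.05 and 10.11 in SMC cells, and its 4 probe sets had log2 fold changes of -0.10 to 0.04. NR1H3, which encodes the oxysterol receptor LXR-alpha, was at 7.42, 7.47 and 7.89 in ALI and 7.57, 7.66 and 7.52 in SMC cells, with a log2 fold change of 0.01. The glucocorticoid receptor gene NR3C1 had 5.75, 6.001 and 5.47 in ALI and 5.75, 5.50 and 5.44 in SMC cells (log2 fold change 0.17). NR1I2, the xenobiotic receptor PXR, had 4.995, 5.01 and 4.71 in ALI and 4.89, 4.59 and 4.75 in SMC cells (0.16). For NR1I2 the mean over its 2 probe sets gave a log2 fold change of 0.02. Of 8 measured LXR target genes 2 were higher and 1 was lower, where 1.02% and 1.51% of all genes were. The cholesterol exporter ABCA1 was at 8.25, 8.21 and 8.06 in ALI cells, against 7.05, 7.26 and 6.79 in SMC cells, and the ubiquitin ligase gene MYLIP was at 10.19, 10.27 and 10.63 in ALI cells, against 9.34, 9.18 and 9.69 in SMC cells. SCD, a fatty acid desaturase, was lower, at 12.09, 11.78 and 11.75 in ALI cells, against 13.15, 12.998 and 12.84 in SMC cells. Of 22 PPAR target genes 1 was higher and 0 were lower, or 2 and 1 with the passage as a block. Over all genes the fit with the block called 2.25% higher and 3.75% lower. The PPAR target was CPT1A, the entry enzyme of mitochondrial fatty acid oxidation, at 10.52, 10.81 and 10.71 in ALI cells, against 9.64, 10.11 and 9.69 in SMC cells (log2 fold change 0.87, adjusted p = 0.0301 from limma). The medians of both lists were -0.10 and 0.09, and none of the 7 measured cofactors of nuclear receptors passed the test.

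ID proteins lack a DNA-binding region and block helix-loop-helix factors, and BMP signals induce them. ID3 had log2 signals of 9.65, 9.83 and 9.70 in ALI cells, against 9.21, 9.65 and 8.97 in SMC cells. Its groups touched at 9.65, and the log2 fold change was 0.45 (standard error 0.17, adjusted p = 0.273). ID1 was at 10.72, 10.55 and 10.55 in ALI cells, a range of 0.176, and at 11.43, 10.78 and 10.02 in SMC cells, a range of 1.41. The difference in spread was not tested. The culture types differed by -0.71, -0.23 and 0.53 in passages P109, P111 and P113, and the mean difference of -0.14 (95% interval -0.83 to 0.56) became 0.21 without SMC replicate 1. ID2 and ID4 had log2 fold changes of 0.32 and 0.14. Of 13 other measured genes of the BMP and SMAD pathway, 0 were higher and 1 was lower, against 1.02% and 1.51% of all genes. This was the receptor gene BMPR1B, at 9.504, 9.74 and 9.48 in ALI cells, against 10.22, 10.64 and 10.40 in SMC cells (log2 fold change -0.84, adjusted p = 0.024 from limma).

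MYC, which drives growth and ribosome production in crypt cells, resembled ID1 in its values. It was at 8.89, 9.38 and 8.80 in ALI cells and at 10.67, 9.14 and 8.25 in SMC cells, so that SMC arrays held both the highest and the lowest value. The difference within passages was -1.78, 0.25 and 0.55. The mean log2 fold change of -0.33 (95% interval -1.51 to 0.86, adjusted p = 0.826) turned to 0.33 without SMC replicate 1, and no direction is given for it. Of 14 measured MYC target genes 0 were higher and 1 was lower, against 1.02% and 1.51% of all genes, and the median of the list was -0.05. The lower one was the lactate dehydrogenase gene LDHA (log2 fold change -2.24, adjusted p = 0.0035 from limma). The paper also counts LDHA among the hypoxia-inducible genes. Of 16 proliferation markers none passed the test, with a median of -0.49. With the passage as a block 7 of them were lower, where 3.75% of all genes were lower. The mean signal of these markers was 7.71 to 7.97 in ALI and 7.99 to 8.67 in SMC cells, and its part in the values of MYC and SOX9 was not tested. MYCBP2, a ubiquitin ligase that shares only the start of the symbol, had a log2 fold change of -0.06.

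FOS, JUN and EGR1 were highest at passage P113 in both culture types. FOS was at 9.36, 10.02 and 11.84 in ALI cells of passages P109, P111 and P113, and at 10.33, 9.86 and 12.38 in SMC cells. JUN, its partner in the AP-1 dimer, was at 10.55, 10.51 and 11.97 in ALI and at 10.71, 11.14 and 12.48 in SMC cells. EGR1, a zinc finger factor of the same early response, was at 8.85, 9.76 and 11.17 in ALI and at 10.49, 9.95 and 11.66 in SMC cells. For all 3 genes both passage P113 arrays exceeded the other 4 arrays, as they did for 11 of 70 members and 822 of 6765 genes.

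Passages were compared after these values had been seen, with both passage terms and the culture type in 1 limma fit. Of all 6765 genes, 2 were called (0.0296%), and both were members, JUN (adjusted p = 0.0258) and FOS (adjusted p = 0.0336), while EGR1 had an adjusted p of 0.0883. Over single probe sets 12 were called, among them 2 of the TGF-beta-induced gene PMEPA1 that do not have its highest mean. Passage P113 exceeded the mean of the other passages by 2.22 log2 units for FOS (standard error 0.20, 4.65-fold), by 1.499 for JUN (standard error 0.13, 2.83-fold) and by 1.65 for EGR1 (standard error 0.26, 3.14-fold). Leaving out 1 array could end these calls. No member passed without ALI replicate 3 (adjusted p = 0.0734 for FOS and 0.0603 for JUN) or without SMC replicate 3 (0.0747 for FOS and 0.069 for JUN), and JUN did not pass without ALI replicate 2 (0.0727). Without ALI replicate 1, 6 members passed, adding EGR1, MYC, FOSL1 and SOX9, but 58 of all genes (0.857%) were then called as well. No gene passed when the culture type was left out of the fit. The labels give no other handling of the passages, so passage and culture day or batch cannot be told apart. The gap between the 3′ and 5′ ends of 6 pairs of porcine control probe sets was 0.0805, 0.236 and 0.414 log2 units in ALI and 0.329, 0.409 and 0.574 in SMC cells of passages P109, P111 and P113. The gap was also largest in passage P113 in both culture types, and it was larger in SMC than in ALI cells of each passage. Its part in these values and in the comparisons of ALI with SMC cells was not tested.

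Of the 16 measured immediate early genes outside the families, 6 (37.5%) had the P113 array highest in both culture types, as had 19 of 70 members (27.1%) and 22% of all genes. None of the 16 passed the test between passages, and IER3 was lower at P113 (difference -0.88, adjusted p = 0.0604). In 3 of the 16, both P113 arrays exceeded the other 4 arrays, against 11 of 70 members and 822 of 6765 genes. IER2 was at 9.17, 9.31 and 10.29 in ALI and at 9.78, 9.63 and 10.58 in SMC cells, and DUSP1, a phosphatase that ends MAP kinase signals, was at 10.50, 10.44 and 11.45 in ALI and at 11.10, 10.43 and 11.68 in SMC cells. ZFP36, which degrades cytokine mRNA, was at 8.49, 8.89 and 9.78 in ALI and at 9.31, 8.91 and 10.09 in SMC cells. Their adjusted p between passages were 0.0641, 0.0834 and 0.0926, and the 3 genes were chosen for this pattern after their values were seen.

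Between the culture types, FOS, JUN and EGR1 had log2 fold changes of -0.45, -0.43 and -0.77, with standard errors of 0.75, 0.51 and 0.59 and adjusted p of 0.84, 0.759 and 0.617. Within passages the ALI array was the lower one in all 3 for JUN (-0.16, -0.62 and -0.51) and EGR1 (-1.63, -0.19 and -0.50), and in 2 of 3 for FOS (-0.97, 0.16 and -0.53). With the passage as a block the adjusted p was 0.0925 for JUN, 0.122 for EGR1 and 0.251 for FOS. A second EGR1 probe set had a log2 fold change of -0.92 and passed with the block (adjusted p = 0.0306), and the third gave -0.63. The log2 fold change of EGR1 was -0.24 without ALI replicate 1 and -0.29 without SMC replicate 3. FOSL1, a FOS relative linked to migrating and injured epithelium, was at 6.67, 6.79 and 5.27 in ALI and at 7.98, 6.77 and 6.17 in SMC cells. Its lowest value lay in passage P113 in both culture types, opposite to FOS. The log2 fold change of FOSL1 was -0.73 (standard error 0.51, adjusted p = 0.578), and its other 2 probe sets gave -0.04 and -0.07. It was -0.22 without SMC replicate 1 and -0.24 without ALI replicate 3. FOSL2 had log2 signals of 7.65, 6.93 and 7.18 in ALI and 7.66, 7.21 and 7.40 in SMC cells (log2 fold change -0.17). Of 16 measured immediate early genes outside the families, 0 were higher and 0 lower, with a median of -0.23. With the passage as a block 3 were lower (BTG2, CYR61 and IER3), where 3.75% of all genes were lower.

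**Figure D3:**
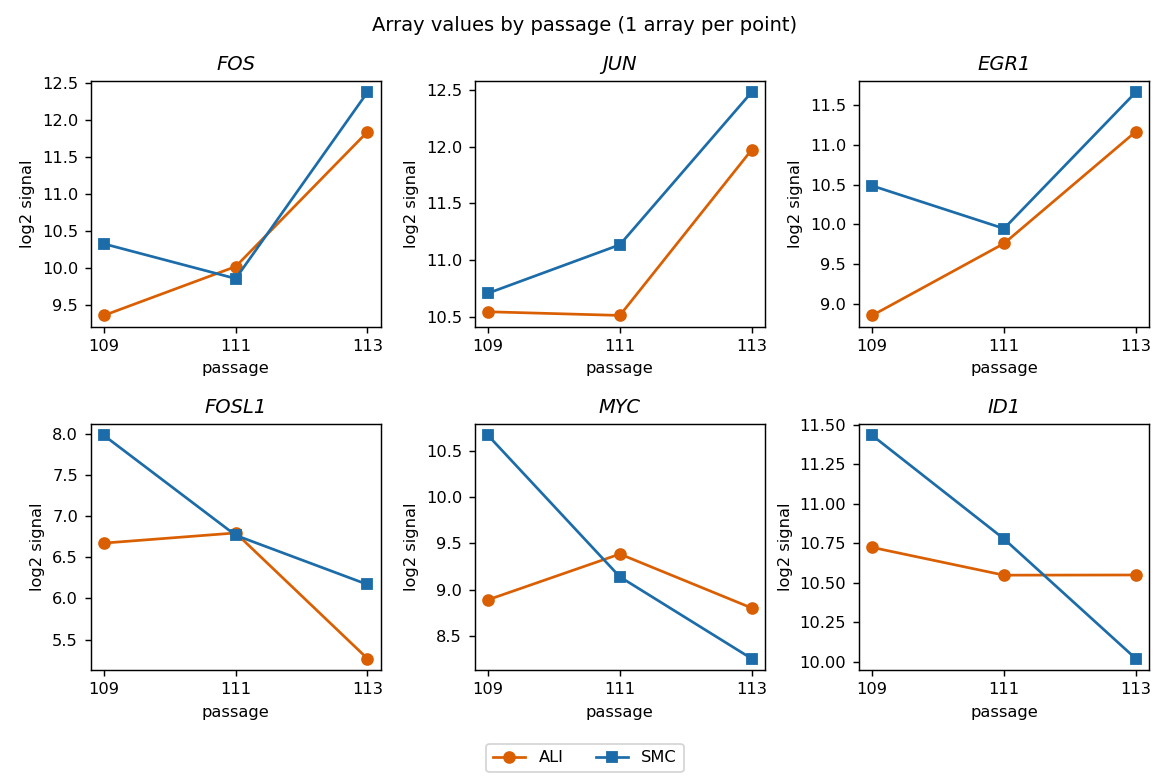
Log2 signal of FOS, JUN, EGR1, FOSL1, MYC and ID1 by passage, 1 array per point, for ALI (circles) and SMC cells (squares). FOS, JUN and EGR1 peak at passage P113 in both culture types, FOSL1 is lowest there, and MYC and ID1 vary over 2.41 and 1.41 log2 units in SMC but over 0.583 and 0.176 in ALI cells.

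Some members had a wider spread between arrays of 1 culture type than most genes. The residual SD of the fit with culture type alone was 1.31 log2 units for FOS, which ranked 2 among 6765 genes, and 1.03 for EGR1, which ranked 6. MYC, FOSL1 and JUN followed at 0.892, 0.885 and 0.879, with ranks of 9, 10 and 11. SOX9, KLF11, ID1, NR2F2 and CEBPG were also among the 5% of genes with the widest spread, so that 10 of 70 members (14.3%) lay there. The median residual SD was 0.183 for the members and 0.152 for all genes. KLF11, a TGF-beta-induced repressor, had its low value in ALI cells of passage P111, with 6.83, 5.79 and 7.15 in ALI and 6.66, 6.58 and 7.22 in SMC cells. Narrow members stood beside these, such as SOX10 and PPARA with residual SDs of 0.0467 and 0.0429. For FOS the 95% interval of the culture difference ran from -2.17 to 1.28, the widest interval of all members.

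**Figure D4:**
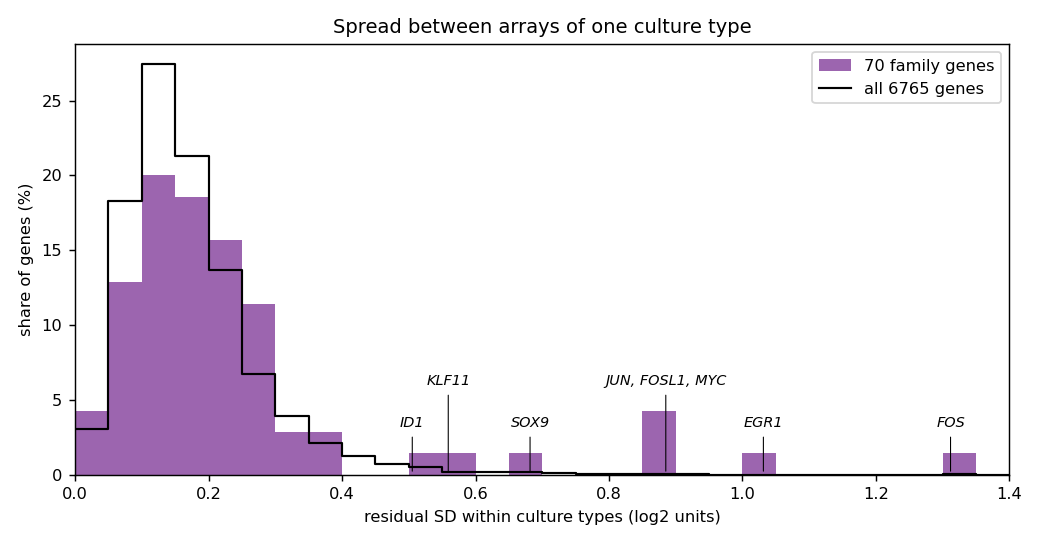
Residual SD within culture types, in log2 units, as the share of the 70 family genes (bars) and of all 6765 genes (line) per bin. Most members lie in the range of other genes, and FOS, EGR1, JUN, FOSL1, MYC and SOX9 lie far to the right, at 0.682 to 1.31.

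Over all genes, 1.02% were called higher and 1.51% lower in the main fit. Factors of epithelial and mesenchymal state outside the families were measured as a list of 15 genes, of which 0 were higher and 2 were lower. Both are partners of YAP in growth control. TEAD1 was at 6.96, 7.11 and 6.94 in ALI cells, against 7.76, 7.83 and 7.57 in SMC cells (log2 fold change -0.71, adjusted p = 0.0218 from limma), and TEAD4 was at 8.33, 8.17 and 8.38 in ALI cells, against 9.32, 9.12 and 8.92 in SMC cells (-0.83, adjusted p = 0.0216). Of 6 measured partners of NR1D in the circadian clock, 0 were higher and 1 was lower, BHLHE40, a repressor also induced by hypoxia, at 5.74, 5.04 and 4.80 in ALI cells, against 6.86, 6.12 and 6.65 in SMC cells (log2 fold change -1.35, adjusted p = 0.047). For all 3 genes the ALI and SMC arrays did not overlap. None of 6 AP-1 and CREB partners, 3 genes of the MYC network, 8 nuclear receptors with other symbols and 8 glucocorticoid receptor targets passed the test, with medians of 0.16, -0.10, 0.09 and 0.03. With the passage as a block, the ETS factor EHF was also higher (log2 fold change 0.65, adjusted p = 0.0132), the retinoic acid receptor gene RARB was lower (-0.67, adjusted p = 0.0145), and the glucocorticoid-induced gene TSC22D3 was higher (0.57, adjusted p = 0.0383).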

How the data were processed

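RNA of 3 ALI and 3 SMC cultures of IPEC-1 was hybridized to GeneChip Porcine Genome Arrays. According to the methods, the authors used the Affymetrix GCOS software, arrayQualityMetrics and GC-RMA normalization. The submitters' processing notes give version 1.1.1 of GCOS, which differs from the version named in the methods. The authors deposited log2 signals per probe set, in a table that does not name its normalization. They were used without further scaling. After 124 control probe sets were left out, 23999 probe sets were fitted with limma 3.58.1 in R 4.3.3 (lmFit, eBayes), with culture type as the only factor, and called at a Benjamini-Hochberg adjusted p under 0.05. The annotation gave 1 symbol to 10069 probe sets, several to 198 and no symbol to 13732. Of a gene's probe sets, the one with the highest mean stood for it. By Entrez ID, 68 of the 70 member symbols were found in RefSeq, all unchanged, and 4 probe sets shared by FOSL2 and another gene were not used. Arrays have no sequencing depth, and their number limits the precision. With 3 arrays a group, no exact permutation p can go under 0.1.

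By the labels, every passage has an ALI and an SMC array. Deviations from the group means correlated across probe sets at 0.34, 0.14 and 0.451 within passages P109, P111 and P113, and between -0.424 and 0.219 for arrays of different passages. As all values within passages were above 0.1, the passage was taken as a pairing and fitted as a block beside the main results. The 0.14 within passage P111 was below the 0.219 of ALI P111 against SMC P109, so these values alone do not show a pairing.

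Named are members called in either fit, members past 1.5-fold with separate groups, the member with the highest mean in each group and the main intestinal factors. Other members with values and the comparison of passages were added after the values were seen. Members and lists were chosen with earlier results of these data known. Alternatives were an intensity trend, robust fitting, quantile normalization, 2 filters on dim probe sets, the mean over probe sets, the methods' t-test with pooled variance and leaving out each array. The fit was tested on simulated data.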

Additional observations from a re-analysis of the deposited data

How the results depend on the processing

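Counts of members higher and lower in ALI cells were 0 and 0, and stayed so in each fit with 1 array left out (0 to 0 for both), with robust fitting, above a mean of 4, with the mean over probe sets and in the adjusted methods' t-test. They were 1 and 2 with the passage as a replicate block, and 1 and 0 with an intensity trend, after quantile normalization and above a mean of 6. At an unadjusted p they were 7 and 0 in the methods' t-test and 8 and 1 in limma, the last chosen after seeing the data, where 7.1% and 7.07% of all genes passed in the t-test and 7.1% and 8.91% in limma. Members past 1.5-fold among those called in the main fit were 0. Of the members called with the block, FOXA2 was 1.63-fold higher, and CEBPG and SOX9 were 1.55-fold and 1.66-fold lower. The block changed no other call of a member by its main probe set. Members called between passages, a comparison added after seeing the data, were 2, and 0 with no culture term, and 0 to 6 with 1 array left out.

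Of 401 log2 fold changes of 29 named members under the alternatives, 374 kept their direction and their side of the threshold, 6 were newly past it and 21 changed sign. None of the 13 members whose sign changed was called between the culture types under any setting. HNF4A turned to 0.023 after quantile normalization and PPARA to 0.015 with the mean over its probe sets. With 1 array left out, values ran from -0.050 to 0.24 for KLF4, -0.045 to 0.13 for GATA4, -0.23 to 0.056 for GATA6, -0.12 to 0.23 for FOXA1, -0.21 to 0.14 for HNF4A, -0.50 to 0.21 for ID1, -0.88 to 0.33 for MYC, -0.13 to 0.023 for MYCBP2, -0.91 to 0.088 for JUN, -1.16 to 0.31 for FOS, -0.015 to 0.19 for CEBPB and -0.37 to 0.046 for NR2F2. The cause was not tested. With culture type as the only factor, the 95% intervals of FOS, EGR1, MYC, JUN and FOSL1 held both 0 and a 1.5-fold decrease. That of CEBPG, also among the 5% of genes with the widest spread, ran from -1.16 to -0.11. With the passage as a block the standard error was 0.19 instead of 0.75 for FOS and 0.12 instead of 0.51 for JUN. For SOX9, which passed with the block, it was 0.16 instead of 0.40. No signal in the lowest 25% is shown to be above background.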
